A study of Oryctolagus cuniculus with 3 samples.

Results

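The genes described here encode splicing factors and other RNA-binding ribonucleoproteins, and their transcripts were compared between slow-frozen and vitrified rabbit embryos. They were taken by name: every gene with a probe in the deposited table of log2 ratios whose symbol begins with SRSF, HNRNP, SNRP, SF3A, SF3B, PRPF, U2AF, or LSM or RBM followed by a digit. The rule gave 63 genes of the 6562 that could be named in the table, with 150 probes between them. The rule itself reads names and no measured value. The brightest probe stood for its gene, and 30 of the 63 genes had more than 1.

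Rabbit morulae were recovered on day 3 after artificial insemination, cryopreserved by slow freezing or by vitrification, and transferred to recipient does, and the embryos were collected on day 6. The slow-freezing steps are not given in the sources used here. Vitrified morulae passed at 20 °C through 12.5% dimethyl sulphoxide with 12.5% ethylene glycol and then 20% of each before plunging into liquid nitrogen. Each of 3 Agilent arrays carried 100 ng of total RNA of slow-frozen embryos in 1 channel and of vitrified embryos in the other, as biological replicates 1 to 3, with the dyes exchanged on replicate 2. All embryos had been cryopreserved and transferred, so the ratios do not set either method against fresh embryos. Rabbit strain and the number of embryos in each RNA sample are not given in the sources used here.

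Splicing removes introns from pre-mRNA in the spliceosome, a particle built anew on each intron from small nuclear ribonucleoproteins, or snRNPs. Each snRNP is an RNA wrapped in a ring of Sm or LSm proteins and carries proteins of its own. The U1 snRNP reads the start of the intron, and the U2 snRNP with SF3A and SF3B reads the branch point. The U4/U6.U5 tri-snRNP brings several of the PRPF proteins. SR proteins and hnRNPs bind exons and introns and shift which splice sites are used, and many RBM proteins act beside them. The early embryo first lives on maternal transcripts and then makes, splices and turns over its own.

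No gene of the group passed the test: 0 of 63 had an adjusted p under 0.05 in limma with Benjamini-Hochberg adjustment over all 22839 probes, where the call rate was 0%. The smallest adjusted p was 0.98 among the splicing factors and 0.55 over all probes. At an unadjusted p under 0.05, 0 of 63 were higher in frozen embryos, against 1.43% of all named genes, and 1 of 63, SNRPN, was lower, against 2.74%. With the sign of replicate 2 turned, since its direction is likely but not stated, SNRPN was no longer past that threshold. HNRNPA3 was then the 1 lower gene, at -0.48, and LSM2 the 1 higher gene, at 0.52. The mean log2 ratio of frozen over vitrified embryos ran from -0.52 (SNRPN) to 0.20 (RBM22), and 0 of 63 means reached 1.5-fold, against 2.22% of the named genes. The ratio is per RNA sample, so fewer cells of a type and less RNA per cell cannot be told apart.

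The group as a whole lay close to 0. Its median mean log2 ratio was -0.05, with quartiles of -0.13 and 0.01, against a median of -0.01 over the named genes. Of the 63 genes, 43 had a mean below 0, or 68.3%, against 53.2% of the named genes. The median size of the mean, without its sign, was 0.07 in the group and 0.11 over the named genes. The median SD over the 3 arrays was 0.23 in the group and 0.26 over the named genes, so the typical mean was smaller than the typical spread between arrays. The 95% interval of the mean, from limma, stayed inside 1.5-fold in both directions for 49 of the 63 genes, or 77.8%, against 62.3% of the named genes. The 14 genes whose interval reached further were HNRNPA0, HNRNPA3, HNRNPH3, HNRNPU, LSM2, PRPF4, PRPF6, RBM23, RBM28, RBM47, SF3B2, SF3B4, SNRPD3 and SNRPN.

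Of the 63 genes, 3 lay above 0 on all 3 arrays (PRPF3, RBM18 and RBM22), or 4.76%, against 10.7% of the named genes, and 8 lay below 0 on all 3 (HNRNPA0, HNRNPK, LSM5, SF3B4, SNRPB2, SNRPD1, SNRPN and SRSF5), or 12.7%, against 11.6%. With a mean of at least 1.5-fold required as well, 0 of 63 genes remained on the higher side, against 0.32% of the named genes, and 0 on the lower side, against 1.2%. By array, 28, 29 and 21 of the 63 genes lay above 0 on replicates 1 to 3. Over the 6562 named genes the counts were 2734, 3739 and 3502.

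The direction of replicate 2 bears on every mean. The labels give its dyes, but not whether its column in the deposited table was turned to frozen over vitrified like the others. For the 10 spike-in control RNAs, whose ratio follows the dye, Pearson's r was 0.993 for replicates 1 and 3, -0.996 for replicates 1 and 2, and -0.998 for replicates 2 and 3, so the column was likely turned, and it was used as frozen over vitrified. Replicates 1 and 2 correlated at -0.36 over all 22839 probes, so values with the sign of replicate 2 turned are also given. The median of the 63 genes was then -0.06, with 5 genes above 0 on all arrays (7.94%, against 11.2% of the named genes) and 14 below 0 (22.2%, against 15.3%). The 5 were LSM2, RBM25, RBM39, SF3B1 and SNRPD3.

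**Figure D1:**
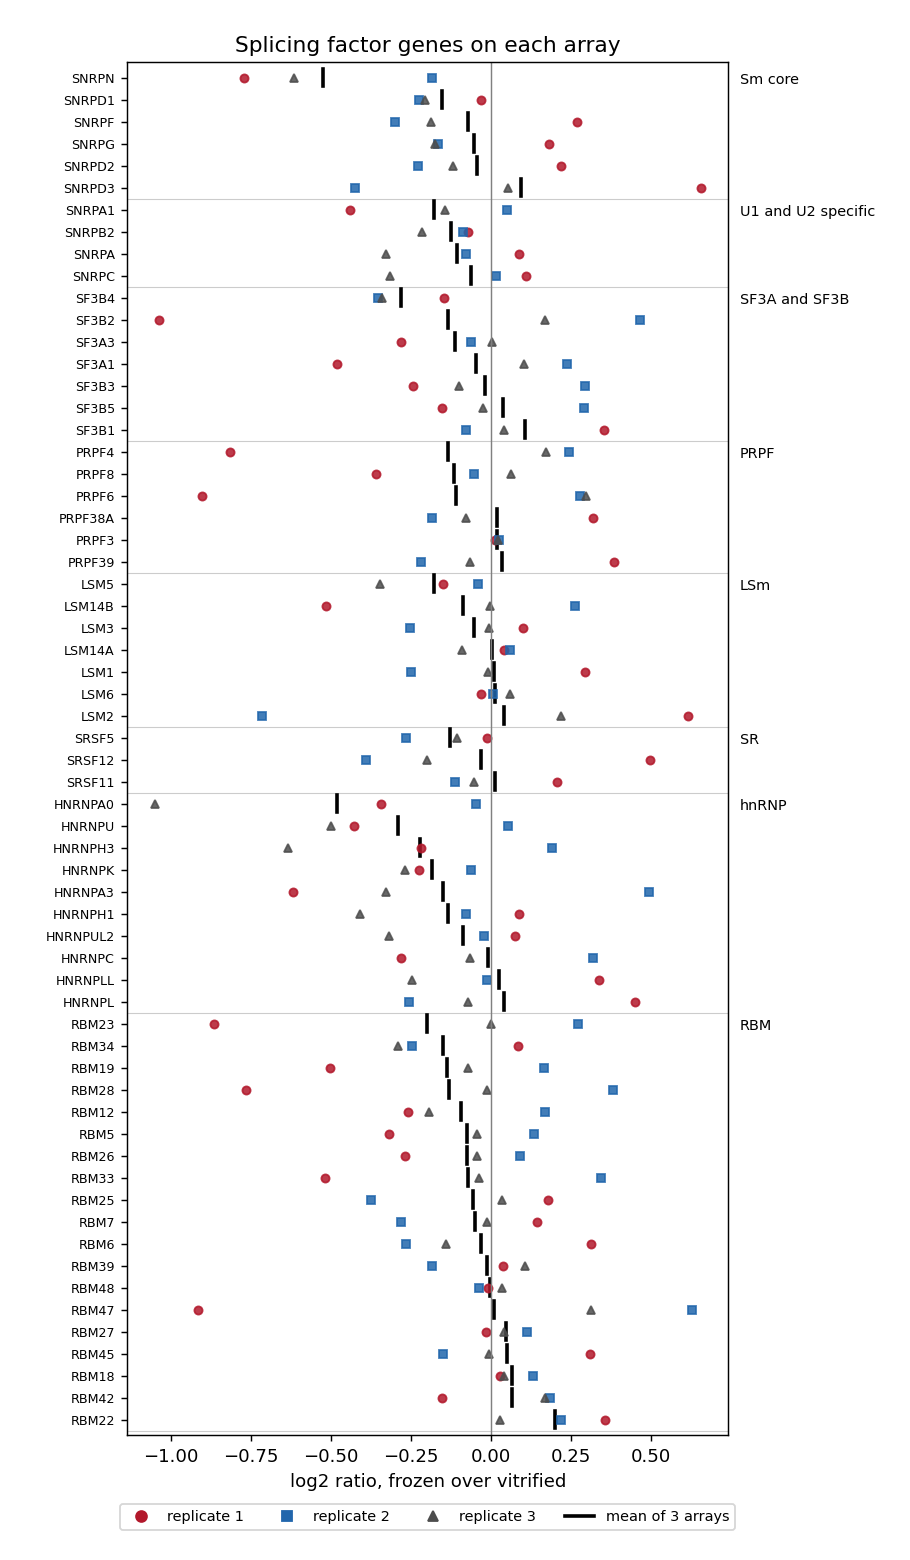
Log2 ratio of frozen over vitrified embryos (horizontal axis) for the genes listed at left, grouped by class and ordered by mean; symbols are the 3 arrays and black bars their means. The circles of replicate 1 spread most and often lie across 0 from the squares of replicate 2, while the means stay between -0.52 and 0.20.

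The Sm proteins form the ring around the U1, U2, U4 and U5 RNAs. Of 8 genes listed, 6 were measured, and SNRPB and SNRPE had no named probe. SNRPN encodes SmN, a close relative of SNRPB's product, and in human and mouse it is transcribed from the paternal copy of an imprinted locus. It gave the lowest mean of the whole group. Its only probe, shown because the value rests on it, was:
SNRPN: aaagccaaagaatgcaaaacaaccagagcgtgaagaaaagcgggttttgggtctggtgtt

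On replicates 1, 2 and 3 the log2 ratio of SNRPN was -0.77, -0.18 and -0.62. The log2 processed intensity was 10.43 and 10.49 in frozen embryos on the 2 scanned arrays, replicates 1 and 3, against 11.2 and 11.11 in vitrified embryos. Frozen embryos were thus the lower side on all 3 arrays, least so on replicate 2, where the dyes were exchanged. Both scanned arrays carried frozen embryos in the same dye, so their channel values cannot tell dye from embryo group. The mean was -0.52 ± 0.30 (SD, n = 3), or 1.44 times lower in frozen embryos, with a 95% interval of -0.94 to -0.11 and an adjusted p of 0.98 in limma, so it did not pass. With the sign of replicate 2 turned the mean was -0.40. SNRPN and SNRPB are alike in sequence, and whether the probe also takes up SNRPB RNA was not tested.

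The other Sm genes, except SNRPD1, differed in sign between arrays. SNRPD3 had log2 ratios of 0.66, -0.42 and 0.05 on replicates 1 to 3, SNRPF 0.27, -0.30 and -0.19, SNRPD2 0.22, -0.23 and -0.12, and SNRPG 0.18, -0.16 and -0.17. SNRPD1 lay below 0 on all arrays, at -0.03, -0.22 and -0.20. All 6 Sm genes lay below 0 on replicate 2, between -0.42 and -0.16, and 4 of 6 lay above 0 on replicate 1. The class median of the mean was -0.06, and 0.08 with the sign of replicate 2 turned. Proteins that belong to 1 snRNP came next. SNRPA and SNRPC, of the U1 snRNP, averaged -0.10 and -0.06, and SNRPA1 and SNRPB2, which sit together on the U2 RNA, averaged -0.18 ± 0.25 and -0.12 ± 0.08 (SD, n = 3). SNRPB2 lay at -0.07, -0.09 and -0.21 on replicates 1 to 3 at the brighter of its 2 probes, while the other reached 0.16 on replicate 1, and SNRPA1 at -0.44, 0.05 and -0.14. All 4 lay below 0 on replicate 3, between -0.33 and -0.14, and 0 of 4 passed the test.

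SNRPD3 also shows how finely some genes were tiled. Its 5 probes lie within 4 bases of each other, and the outermost are printed with their 56 shared bases of 60 in capitals:
SNRPD3 first probe: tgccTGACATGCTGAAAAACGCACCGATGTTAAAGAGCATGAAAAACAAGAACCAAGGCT
SNRPD3 last probe: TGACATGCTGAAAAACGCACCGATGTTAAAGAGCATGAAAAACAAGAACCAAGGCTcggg
The 5 probes read 0.64 to 0.71 on replicate 1, -0.47 to -0.37 on replicate 2 and -0.02 to 0.05 on replicate 3. The gap between replicates 1 and 2 was therefore far wider than the scatter of the probes within an array.

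SF3A and SF3B make up the part of the U2 snRNP that clamps the branch point, and SF3B1 is the subunit that holds the branch helix. SF3B1 had log2 ratios of 0.35, -0.08 and 0.04 on replicates 1 to 3, a mean of 0.11 ± 0.22 (SD, n = 3), which was -0.02 without replicate 1. That probe, the brightest, lies on a transcript record whose probes averaged 0.10 to 0.14. SF3B1 averaged -0.05 to 0.00 at the probes on its other record. Its partner SF3B2 spread widest of the complex, at -1.04, 0.47 and 0.17, with a mean of -0.13 ± 0.80 that was 0.32 without replicate 1. SF3B4, which binds the pre-mRNA near the branch point, was the 1 subunit below 0 on every array, at -0.15, -0.35 and -0.34. Its log2 intensity was 7.57 in frozen embryos on both scanned arrays, against 7.72 and 7.91 in vitrified embryos. The mean of SF3B4 was -0.28 ± 0.11 (SD, n = 3), with an adjusted p of 1.00 in limma, and -0.04 with the sign of replicate 2 turned. SF3A1 (-0.48, 0.24, 0.11), SF3A3 (-0.28, -0.06, 0.00), SF3B3 (-0.24, 0.29, -0.10) and SF3B5 (-0.15, 0.29, -0.02) completed the complex. The other, dimmer probe of SF3A3 read -0.58, 0.28 and -0.08, and so lay above 0 on replicate 2. At the brightest probes, replicate 1 put 6 of the 7 subunits below 0, whereas replicate 2 put 4 of 7 above it. The class median of the mean was -0.05 (-0.16 with replicate 2 turned).

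The PRPF proteins carry the spliceosome through assembly and activation. PRPF8, the scaffold of the catalytic core, had log2 ratios of -0.36, -0.05 and 0.06, a mean of -0.11 ± 0.22 (SD, n = 3) that was 0.01 without replicate 1. PRPF3 and PRPF4 are partners in the U4/U6 snRNP. PRPF3 had the steadiest value of the group, at 0.01, 0.02 and 0.02, with a mean of 0.02 ± 0.01, whereas PRPF4 read -0.82, 0.24 and 0.17, with a mean of -0.13 ± 0.59 that was 0.21 without replicate 1. PRPF6, which bridges the U5 and U4/U6 particles, behaved like PRPF4, at -0.90, 0.28 and 0.30. PRPF39, which works with the U1 snRNP, averaged 0.04, and PRPF38A, which joins before activation, averaged 0.02. Of the 7 PRPF genes, 4 had a mean above 0, and their median was 0.02, or -0.07 with replicate 2 turned.

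The LSm proteins form a ring like that of the Sm proteins. LSM2 to LSM8 hold the U6 RNA in the nucleus, and with LSM1 in place of LSM8 the ring drives decay of shortened mRNAs in the cytoplasm. The shared ring members differed from each other. LSM2 had log2 ratios of 0.62, -0.72 and 0.22 on replicates 1 to 3, while LSM6 stayed at -0.03, 0.01 and 0.06, LSM3 read 0.10, -0.25 and -0.01, and LSM5 read -0.15, -0.04 and -0.35. LSM5 was the 1 LSm gene below 0 on all arrays, with a mean of -0.18 ± 0.16 (SD, n = 3) and an adjusted p of 1.00 in limma, and 4 of its 5 probes lay below 0 throughout. LSM1, the cytoplasmic subunit, averaged 0.01. LSM14A and LSM14B are proteins of cytoplasmic granules that keep mRNAs untranslated. They averaged 0.00 ± 0.08 and -0.08 ± 0.40, and LSM14B was at 0.13 without replicate 1. The values of LSM3 are open to a second gene, since the accessions of its probe also lead to the unnamed locus LOC100345430.

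Of the SR proteins, whose serine- and arginine-rich tails recruit the splicing machinery to exons, 3 genes were measured. SRSF5 lay at -0.01, -0.26 and -0.11, below 0 on all arrays, with a mean of -0.13 ± 0.13 (SD, n = 3), or 0.05 with the sign of replicate 2 turned. SRSF12 lay at 0.50, -0.39 and -0.20 and averaged -0.03 ± 0.47, or 0.15 without replicate 2 and -0.29 without replicate 1. SRSF11 lay at 0.21, -0.11 and -0.05. At the brightest probes, all 3 were below 0 on replicates 2 and 3, and 2 of 3 were above 0 on replicate 1. The other probe of SRSF11 read 0.06 on replicate 3. SRSF1, the best studied of the family, had no named probe, nor had U2AF1 or U2AF2, which read the end of the intron.

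The hnRNPs coat nascent transcripts and often keep splice sites from use. Their median mean log2 ratio was -0.14 over 10 genes, 8 of which had a mean below 0. It was -0.18 with replicate 2 turned but -0.0037 without replicate 3, so the value rested on that array. On replicate 3 all 10 lay below 0, between -1.05 and -0.06, with a median of -0.32. Of the 6562 named genes, 3502 lay above 0 on that array, and the median over all named genes there was 0.02. On replicate 1 the class median was -0.22 with 6 of 10 below 0, and on replicate 2 it was -0.01 with 6 of 10 below 0. These counts are at the brightest probes, and other probes of HNRNPUL2 and HNRNPL differ in sign on some arrays. Even so, 0 of 10 passed the test, also unadjusted.

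HNRNPA0, an RNA-binding protein of the hnRNP A/B family, had the lowest mean of the class. Its log2 ratios were -0.34, -0.05 and -1.05, and its mean was -0.48 ± 0.52 (SD, n = 3) with an adjusted p of 1.00 in limma, or -0.45 with replicate 2 turned. On replicates 1 and 3 alone HNRNPA0 averaged -0.70, but -0.22 after normexp background correction and loess. Its single probe was dim, at a log2 intensity of 5.62 and 4.70 in frozen embryos on replicates 1 and 3, against 5.97 and 5.75 in vitrified embryos, and replicate 3 supplied most of the mean. HNRNPU, a scaffold protein of chromatin and RNA, read -0.43, 0.06 and -0.50, with a mean of -0.29 ± 0.30. HNRNPH3 (-0.22, 0.19, -0.63) and HNRNPH1 (0.09, -0.08, -0.41), which bind runs of G, averaged -0.22 and -0.13. HNRNPA3 read -0.62, 0.50 and -0.33. HNRNPUL2 read 0.08, -0.02 and -0.32 at the brighter of its 2 probes, and -0.18, 0.03 and -0.42 at the other. HNRNPL and HNRNPLL are relatives that bind CA repeats. At the brightest probes both lay above 0 on replicate 1 (0.45 and 0.34) and below it on replicates 2 and 3. Their means were 0.04 and 0.03. On replicate 3 the probes of HNRNPL ran from -0.11 to 0.05.

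HNRNPK, which binds runs of C, was the steadiest hnRNP. Its log2 ratios at the brightest probe were -0.22, -0.06 and -0.27, and its mean was -0.18 ± 0.11 (SD, n = 3), with an adjusted p of 1.00 in limma and a turned mean of -0.14. It has 5 probes, and the last pair is printed with the 29 shared bases of 60 in capitals, because the rest of each probe reads different bases of the transcript:
HNRNPK upstream probe: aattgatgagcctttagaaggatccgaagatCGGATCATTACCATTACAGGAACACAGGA
HNRNPK last probe: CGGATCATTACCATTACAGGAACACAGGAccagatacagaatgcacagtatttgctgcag
All 5 probes lay below 0 on all 3 arrays, and their means ran from -0.27 to -0.18. The probes share the 3 RNA sample pairs, so they repeat the measurement and add no embryos.

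HNRNPC, which binds U-rich stretches, was tiled with 11 probes, the most of any gene here. Of these, 10 lie over the same stretch in 2 forms, 5 probes with CGGGGG and 5 with GGG at 1 place, shown in capitals with the flanking bases the forms share:
HNRNPC form with CGGGGG: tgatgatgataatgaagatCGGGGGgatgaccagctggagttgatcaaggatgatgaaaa
HNRNPC form with GGG: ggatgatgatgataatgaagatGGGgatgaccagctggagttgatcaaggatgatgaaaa
The ranges of the forms overlapped on each array. The probes with CGGGGG gave -0.21 to -0.13, 0.28 to 0.37 and -0.29 to -0.22 on replicates 1 to 3, and those with GGG gave -0.14 to -0.09, 0.23 to 0.34 and -0.24 to -0.10. Their means over arrays averaged -0.04 and 0.00. A pair of the probes has the same sequence and gave -0.21 and -0.16 on replicate 1, 0.30 on replicate 2 both times, and -0.24 and -0.22 on replicate 3, which shows the repeatability of 1 probe within an array.

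The RBM genes are named for an RNA recognition motif and have varied roles. Of 19 genes, 6 had a mean above 0 and 13 below, with a median of -0.05 (-0.03 with replicate 2 turned, and 0.05 without replicate 1). RBM22, which contacts the U6 RNA in the activated spliceosome, had the highest mean of all 63 genes. Its log2 ratios were 0.36, 0.22 and 0.03, and its log2 intensity was 7.43 and 7.42 in frozen embryos on replicates 1 and 3, against 7.07 and 7.39 in vitrified embryos. The mean of RBM22 was 0.20 ± 0.16 (SD, n = 3) with an adjusted p of 1.00 in limma, and 0.06 with replicate 2 turned. RBM18 also lay above 0 on all arrays, at 0.03, 0.13 and 0.04 at its brightest probe, as did 2 of its 5 probes.

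Other RBM genes with known parts in splicing split by array. RBM25, RBM39 and RBM6 read 0.18, 0.04 and 0.31 on replicate 1 and -0.37, -0.18 and -0.26 on replicate 2. RBM5, a regulator of apoptotic gene splicing, and RBM23, a relative of RBM39, did the opposite, at -0.32 and -0.86 on replicate 1 and 0.14 and 0.27 on replicate 2. The mean of RBM23 was -0.20 ± 0.59 (SD, n = 3) and 0.14 without replicate 1. RBM19 (-0.50, 0.17, -0.07) and RBM28 (-0.76, 0.38, -0.01), nucleolar proteins, followed the pattern of RBM23. RBM7, of the nuclear exosome's targeting complex, read 0.15, -0.28 and -0.01. RBM47, a partner of the enzyme that edits APOB mRNA, spread widest of the 63 genes, at -0.91, 0.63 and 0.31, with a mean of 0.01 ± 0.82. RBM48 stayed at -0.01, -0.04 and 0.04. The cold-inducible genes RBM3 and CIRBP, of interest after cold storage, could be matched to no probe and are not analysed here.

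**Figure D2:**
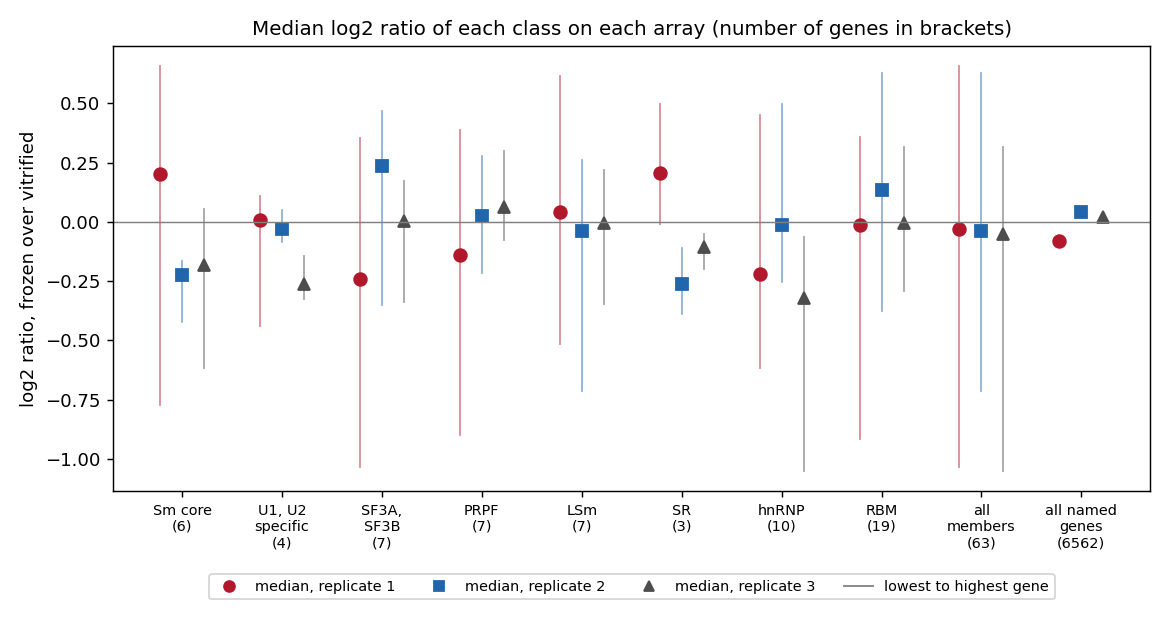
Median log2 ratio of frozen over vitrified embryos (vertical axis) of each class on each array, with lines from the lowest to the highest gene for the classes and for all 63 genes. The median changes sign between replicates 1 and 2 in every class but the hnRNPs, and the hnRNP median is lowest on replicate 3 (-0.32).

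In most of these genes the arrays differed more than the probes. In the 30 genes with several probes, 117 probes in all, the median SD between probes within an array was 0.06, against a median SD between arrays of 0.22. The SD between arrays was the larger in 28 of 30 genes, the exceptions being PRPF39 and SNRPD1. In several genes, such as LSM2 and SNRPD3, all probes start within 4 bases of each other and share most of their sequence. Their small SD within an array therefore says little about agreement along a transcript. The means of a gene's probes differed by 0.06 at the median and by at most 0.18, in SF3B1, whose 8 probes had means from -0.05 to 0.14. Probe means fell on both sides of 0 in 5 genes, HNRNPC, LSM1, RBM12, RBM25 and SF3B1.

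**Figure D3:**
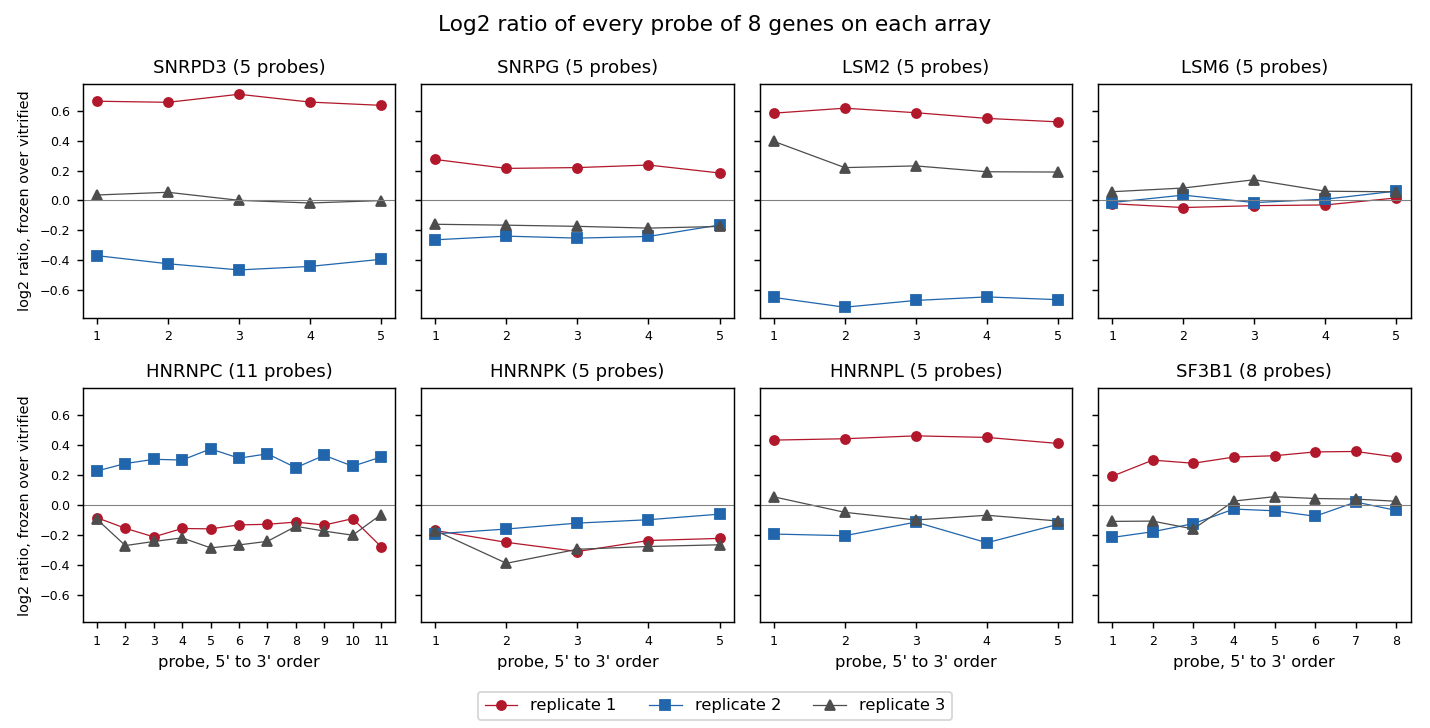
Log2 ratio of frozen over vitrified embryos (vertical axis) of every probe of 8 genes, ordered by start on its transcript record (horizontal axis), with 1 line for each array. The SF3B1 probes belong to more than 1 record. The arrays stand apart most clearly in genes such as LSM2, where replicate 1 reads 0.53 to 0.62 and replicate 2 reads -0.72 to -0.65. In other genes arrays overlap, as in LSM6, at -0.05 to 0.02 on replicate 1 and -0.01 to 0.06 on replicate 2.

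Replicates 1 and 2 had opposite signs in most of these genes. Of the 63 genes, 47 had opposite signs on replicates 1 and 2, or 74.6%, against 66.1% of the named genes, with 24 below 0 on replicate 1 and 23 above it. As a description across genes, which share the same 3 arrays and are no independent replicates, Pearson's r between replicates 1 and 2 was -0.76 over the 63 genes (Spearman's rho -0.73), against -0.38 over the 6562 named genes. Between replicates 2 and 3 it was 0.17 over the 63 genes, against 0.47, and between replicates 1 and 3 it was -0.04, against 0.00. Opposite signs also occur among the 90 further splicing genes described below, with medians of -0.07 and 0.04 on replicates 1 and 2. No r is given for them, so the pattern cannot be read as a trait of this group. The 63 genes were also brighter, at a median log2 intensity of 11.13 against 8.53 over the named genes. Whether brightness bears on r was not tested.

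Base composition of the probe moved with these values. Across the 63 genes the GC content of the probe correlated at -0.41 with the log2 ratio on replicate 1, at 0.34 on replicate 2 and at 0.01 on replicate 3, against -0.14, 0.00 and -0.02 over the named genes. The 9 genes whose probe held 50% GC or more (HNRNPA0, LSM14B, PRPF6, RBM42, RBM48, SF3A1, SF3B2, SF3B5 and SNRPD2) had medians of -0.34, 0.24 and 0.04 on replicates 1 to 3. The 10 genes under 40% GC had medians of 0.18, -0.19 and -0.06. Over the named genes the medians were -0.15, 0.04 and 0.02 at 50% GC or more (1578 genes). Under 40% GC they were 0.08, 0.00065 and 0.02 (737 genes). Position on the transcript moved too: in 212 transcripts that carry probes 500 bases apart or more, the log2 ratio of the 3′ probe minus that of the 5′ probe had a median of 0.24 on replicate 1, -0.13 on replicate 2 and -0.06 on replicate 3. Their part in the opposite signs of replicates 1 and 2 was not tested.

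**Figure D4:**
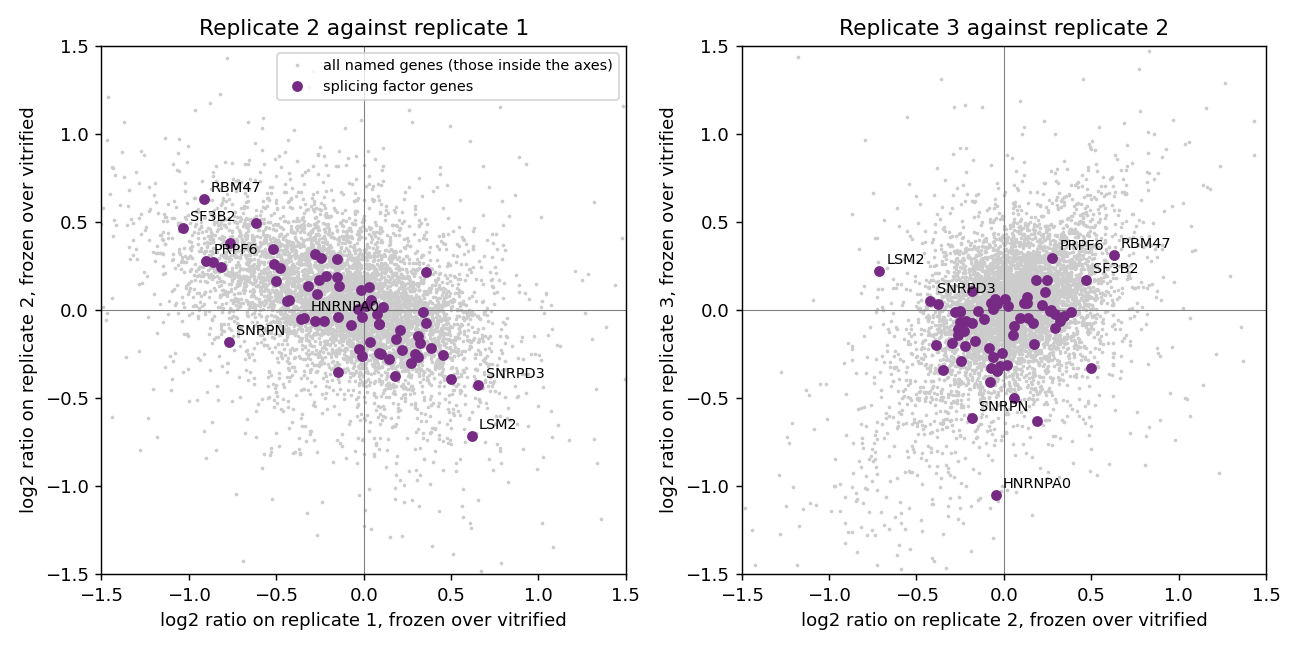
Log2 ratio of frozen over vitrified embryos on replicate 2 against replicate 1 (left) and on replicate 3 against replicate 2 (right), for the 63 splicing factor genes (purple) over the named genes (grey). On the left most purple points fall in the upper left and lower right (47 of 63), with SNRPN among those in the lower left.

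Other genes of the splicing machinery, listed by name without regard to the prefixes, gave the same picture. Of 137 listed, 90 were measured: 47 of 67 further spliceosome proteins, 26 of 46 further splicing regulators and 17 of 24 splicing kinases and snRNP assembly factors. None of the 90 passed the test (0 called in limma with adjustment over all probes), 34 had a mean above 0 and 56 below, and their median was -0.04. At an unadjusted p under 0.05, 0 of 90 were higher and 2 of 90 were lower in frozen embryos, against 1.43% and 2.74% of the named genes. The 2 were RALY, a relative of HNRNPC, at -0.48, -0.24 and -0.48 on replicates 1 to 3, and MBNL2, a muscleblind regulator of alternative exons, at -1.21, -0.45 and -0.26. Their means were -0.40 ± 0.14 and -0.64 ± 0.50 (SD, n = 3), with an adjusted p of 1.00 in limma, and -0.24 and -0.34 with the sign of replicate 2 turned. The mean of MBNL2 was -0.35 without replicate 1, and -0.11 on replicates 1 and 3 after normexp background correction and loess. Among spliceosome proteins, TXNL4A of the U5 snRNP averaged -0.34 ± 0.14, and SNU13, which binds the U4 RNA, averaged -0.29 ± 0.24. With the sign of replicate 2 turned they were at -0.07 and -0.05. Among kinases and assembly factors, CLK4, a kinase of SR proteins, averaged 0.25 ± 0.26, and GEMIN6, of the SMN complex that loads Sm rings, averaged -0.23 ± 0.44, or 0.13 with replicate 2 turned.

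Markers of the embryo's cell types were measured on the same arrays. Trophoblast markers (8 of 15 measured) had a median mean log2 ratio of 0.05, epiblast markers (7 of 13) -0.18, and hypoblast markers (10 of 16) -0.57, the last with medians of -0.02, -0.754 and -0.995 on replicates 1 to 3. With the sign of replicate 2 turned, the trophoblast median was -0.06, the epiblast median -0.32 and the hypoblast median -0.04. Uterine markers (4 of 9) had a median of -0.23, and of 12 blood and immune markers CD68 and S100A9 were measured, with a median of 0.12, or -0.05 and 0.16 with replicate 2 turned. By array, the median log2 ratio of the splicing factors was -0.03, -0.04 and -0.05 on replicates 1 to 3. All 63 splicing factors were well above background in all 4 channels of the scanned arrays, and 0 of their 150 probes were saturated. These counts are not given here for the named genes. The group holds only genes in the deposited table, whose filter is not named, so they cannot be read as a trait of splicing factors. The median log2 intensity of the splicing factors was 11.13, against 8.53 over the named genes.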

How the data were processed

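Total RNA of day 6 embryos was hybridised to 3 two-channel Agilent arrays. The deposited value table holds a log2 ratio per probe and array, made by the authors. On replicates 1 and 3 it equals the log2 of processed red over processed green intensity in the deposited scanner files, which per the submitters' processing notes came from Agilent Feature Extraction 10.10.1.1; replicate 2 has no scanner file here. The deposited scanner files also give a log10 ratio per spot. The authors' table lists 22839 of 43603 probes, and no source used here names the filter behind that choice.

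Probes were named from the scanner files' annotation and RefSeq gene records of the rabbit assembly mOryCun1.1, used for names only. 14034 probes were named (6562 genes) and 8805 were not. Of the 63 genes, 55 were named by gene identifier and 8 by RefSeq transcript. The probe with the highest mean log2 intensity stood for its gene. Ratios were tested against 0 over 3 arrays with limma 3.58.1 (lmFit, eBayes, R 4.3.3), adjusted over all 22839 probes, at a threshold of 0.05, and errors are SDs. The number of arrays limits the precision, and nothing says that samples came from separate animals, so p-values measure only the spread between these samples. With 3 arrays, exact sign flipping gives no p under 0.25. Each array holds both embryo groups.

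The members and gene lists were chosen with earlier results of these data known. Values per array are given for genes of 1 sign on all arrays, the 2 genes furthest from 0 in each class, a fixed set of well-known genes and, in other splicing lists, the 2 with the smallest p; further members were named after their values were seen, and 1 member, kept in all counts and medians, is not reported here by name. Tables were made with Python 3.11.15 and pandas 2.3.3. Alternatives covered background correction, normalization, scale, centring, dye, dim probes, probe choice, the variance prior, the sign of replicate 2 and each array left out.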

Additional observations from a re-analysis of the deposited data

Results flagged for a closer look

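RBM11, a tissue-specific splicing regulator, fits the naming rule but has no probe in the deposited table of ratios, so it entered no comparison. Its 5 probes were well above background in 3 of 4 channels of the scanned arrays, all but vitrified embryos on replicate 1. On replicate 1 the log2 intensity was 4.41 to 4.89 in frozen embryos, against 3.37 to 4.46 in vitrified embryos, and on replicate 3 it was 5.17 to 5.49 in frozen embryos, against 4.68 to 5.36 in vitrified embryos. The log2 ratio of frozen over vitrified embryos had a median of 0.38 on replicate 3, and none is given for replicate 1, where the vitrified channel was not well above background. With 2 arrays and low signal this was not tested.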

How the results depend on the processing

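The scanner files cover replicates 1 and 3 only, so both settings that start from them also leave out replicate 2, and the values from scanner intensities equal those without replicate 2. The adjusted count for the splicing factors was 0 under all 12 alternatives. Over all probes it was 0 except without replicate 1, where 796 of 22839 probes passed and 0 of the 63 genes did. At an unadjusted p under 0.05, in both directions together, 1020 of all 22839 probes passed in the reported fit and 1028 from scanner intensities. After normexp and loess 932 passed, with replicate 2 turned 1064, and with dye as a covariate 759. Without replicate 1 it was 3720, without replicate 2 1027 and without replicate 3 351. Of the 63 genes, the number lower was 1 in the reported fit and 2 from scanner intensities (SNRPN and HNRNPA0). It was 5 after normexp and loess (SNRPN, SNRPA1, HNRNPA3, HNRNPH3 and HNRNPU), 0 with dye as a covariate, and 0 to 3 when 1 array was left out. On the higher side it was 0, with 1 when replicate 2 was turned (LSM2; the 1 lower gene was then HNRNPA3 in place of SNRPN) and a range of 0 to 1 when 1 array was left out (RBM47 without replicate 1). Genes of 1 sign past 1.5-fold on the lower side were 2 from scanner intensities, 1 after normexp and 0 to 2 when 1 array was left out. Each of these settings holds 2 arrays, where 1 sign is met more easily than on 3. The share of the named genes under them is not given here, so these counts cannot be set against the reported fit. SNRPN kept its sign under all alternatives, at -0.69 without replicate 2 and -0.40 without replicate 1. The median of the 63 genes was -0.10 from scanner intensities and -0.0384 with dye as a covariate, and -0.102 to -0.0433 when 1 array was left out. Of the values of named genes under alternatives, 293 kept their sign and 17 did not. SRSF12 was at 0.15 from scanner intensities, 0.10 after normexp, 0.23 with replicate 2 turned and, with 1 array left out, -0.294 (without replicate 1) to 0.15 (without replicate 2). SRSF5 was at 0.0181 after normexp and 0.0491 turned, RBM18 at -0.0203 turned, GEMIN6 at 0.13 turned. With dye as a covariate LSM14B was at 0.00196 and SF3B2 at 0.0174. With 1 array left out, LSM14B ranged from -0.259 to 0.13, PRPF4 from -0.322 to 0.209, PRPF8 from -0.204 to 0.00678, RBM23 from -0.432 to 0.136, SF3B1 from -0.0167 to 0.199 and SF3B2 from -0.432 to 0.319, each crossing 0 without replicate 1. HNRNPA0 and MBNL2 have no value when dim probes are left out. The cause of these changes was not tested. The ratio within each array already pairs frozen with vitrified embryos, and a further replicate block could not be fitted.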
